A study of Mus musculus with 8 samples.

Results

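The MYC and MXD network was examined as the 9 genes *Myc*, *Mycn*, *Max*, *Mxd1*, *Mxd3*, *Mxd4*, *Mxi1*, *Mnt* and *Mlx*, chosen by symbol from the 48321 gene symbols counted in 8 RNA-seq libraries made from spleen of the C57BL/6 strain. The cells were peripheral CD8+ T cells, which kill infected and tumour cells. The groups were WT at day 0, WT at day 5, KO at day 0 and KO at day 5, with 2 libraries each, and the cells had been cultured in vitro until day 5. The labels give the genotype only as WT or KO. The series as a whole is described as *Satb1 F/F; E8I-cre*, in which a floxed allele of the chromatin organiser *Satb1* is combined with a recombinase driven by a *Cd8* enhancer that acts in mature CD8 lineage cells. Whether the WT mice carried the floxed allele or the transgene, the age of the mice and the stimulus of the culture are not given by the labels.

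MYC and N-MYC, encoded by *Myc* and *Mycn*, are basic helix-loop-helix leucine zipper proteins that bind DNA only as dimers with MAX. MXD proteins and MNT compete for MAX and for the same DNA letters, the E-box CACGTG, where they recruit SIN3 and histone deacetylases. MLX is a parallel partner that dimerises with MXD1, MXD4 and MNT and with the nutrient sensors MondoA and ChREBP. In T cells MYC is known for switching on the growth and metabolism that follow antigen receptor stimulation.

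*Satb1* itself did not follow the labels at day 0. Its level was 97.8 and 91.6 CPM (counts scaled to a common library size) in WT at day 0 and 144 and 125 CPM in those labelled KO. At day 5 it was 96.5 and 116 CPM in WT and 56.5 and 62.3 CPM in labelled KO. The log2 difference was 0.51 (SE 0.15, edgeR quasi-likelihood adjusted p = 0.125) at day 0 and -0.84 (SE 0.15, adjusted p = 0.0162) at day 5. The day 5 call was lost without WT day 5 replicate 2 (0.0848) and without labelled KO day 5 replicates 1 (0.174) and 2 (0.156). These counts cover the whole gene, and which exons are floxed is not given by the labels. The libraries are therefore called labelled KO below, and every direction drawn from that label carries this limit.

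Gene counts per library ranged from 4170126 to 11117971 with a median of 5494798, and between 21.2% and 24.5% of the alignment records of a library were assigned to a gene. Cell identity was checked with markers. The summed level of *Cd3e*, *Cd3d*, *Cd8a*, *Cd8b1* and *Trac* was 9862 to 10557 CPM at day 0 and 5856 to 6731 CPM at day 5. Of these 5 genes, 4 were called lower at day 5 in WT and 3 in labelled KO. Mean *Cd8b1* went from 3860 to 1239 CPM in WT and from 3392 to 1321 CPM in labelled KO. Mean *Cd3d* did not fall, at 1549 and then 1575 CPM in WT and 1427 and then 1462 CPM in labelled KO. The 3 markers of the CD4 lineage summed to at most 6.26 CPM. The 7 B-cell markers summed to 122 to 169 CPM at day 0 and 68.1 to 84.3 CPM at day 5, nearly all of it *Cd79b*, while *Ms4a1* had at most 2 counts in a library. The 7 myeloid markers summed to 13.0 to 22.2 CPM at day 0. At day 5 they summed to 34.9 to 41.7 CPM in WT and 53.0 to 75.0 CPM in labelled KO. *Cd68* was the main contributor at day 5, and *Cd14* had no more than 1 count. Mean *Csf1r* and *Itgam* in WT went from 8.49 and 4.21 CPM at day 0 to 3.69 and 0.506 CPM at day 5. Of the 3 myeloid markers tested, 1 was called higher and 2 lower at day 5 in WT. In labelled KO 1 was higher and 1 lower. The WT call of *Csf1r* was lost in 4 of the alternatives described below. By genotype label at day 5, 0 of the 3 were called. The 3 NK cell markers summed to 10.7 to 17.3 CPM at day 0 and 37.5 to 54.1 CPM at day 5, most of it *Eomes*, which activated CD8+ T cells also express, and the 4 erythroid markers stayed at or under 0.904 CPM. The part of these cells in the differences described below was not tested. In such bulk libraries fewer cells of a type and less RNA per cell cannot be told apart.

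Culture was compared first: day 5 against day 0 within each genotype. In WT, 7 of the 9 network genes passed the test, 4 higher and 3 lower, where 48.3% of the 12597 genes tested were called, 24.7% higher and 23.6% lower. In labelled KO 5 passed, 4 higher and 1 lower, against 50.2% of all genes, 26.2% higher and 24% lower. Scaling by library totals gave 2755 higher and 3936 lower genes in labelled KO, in place of 3296 and 3029. The median log2 difference of the 9 genes was -0.12 in WT and -0.11 in labelled KO, and that of all genes was -0.04 and -0.05. All 9 genes passed the filter on low counts. The sizes of the differences are given below by role.

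*Myc* (ENSMUSG00000022346, chr15:61985391-61990374, plus strand, GRCm38) was the most abundant network gene at every time. Its level was 144 and 163 CPM in WT at day 0 and 457 and 623 CPM in WT at day 5. In labelled KO it was 84.6 and 124 CPM at day 0 and 457 and 466 CPM at day 5. All 4 day 5 libraries lay above all 4 day 0 libraries. *Myc* rose by 1.82 on the log2 scale in WT (SE 0.19, edgeR adjusted p = 6.41e-06) and by 2.15 in labelled KO (SE 0.19, adjusted p = 1.34e-06).

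*Mycn* (chr12:12936093-12941914, minus strand), the paralogue best known from embryonic and neural tissue, was at or near the floor of detection at day 0. It had 2 and 0 counts in WT at day 0 and 0 and 1 counts in labelled KO at day 0. At day 5 it had 55 and 36 counts in WT, or 9.70 and 8.68 CPM, and 73 and 95 counts in labelled KO, or 13.4 and 17.99 CPM. Against a floor of 3 counts per library, *Mycn* was at least 15.1-fold higher at day 5 in WT (edgeR adjusted p = 3.63e-05) and at least 38.9-fold higher in labelled KO (adjusted p = 1.74e-06). Per kilobase of exon its day 5 level remained far below that of *Myc*, at 2.63 to 2.94 CPM per kb in WT against 168 to 229 CPM per kb.

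**Figure D1:**
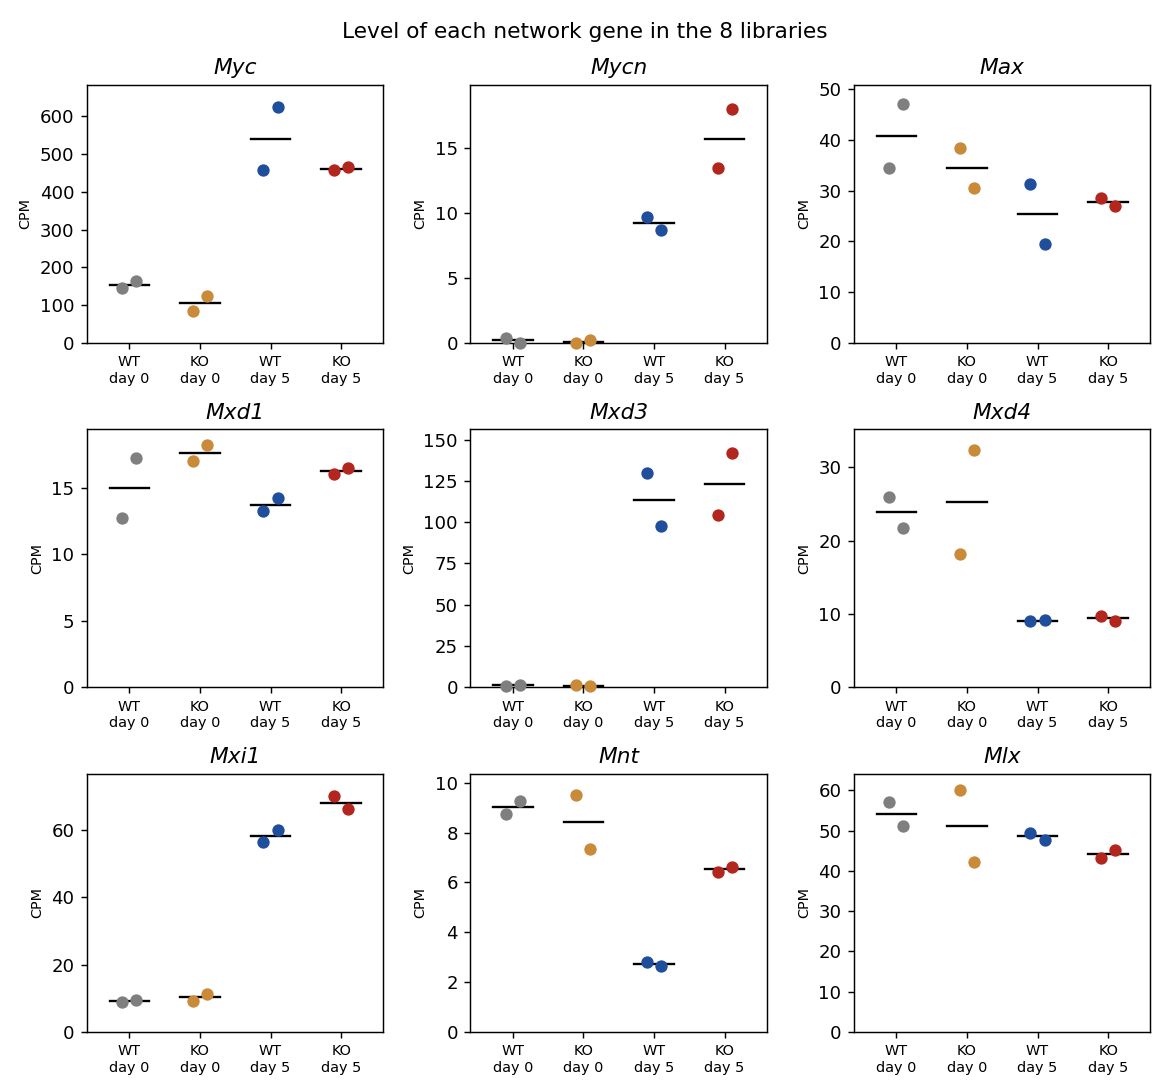
Level of each of the 9 network genes (vertical axis, CPM on the scaled library size, starting at 0) in the 4 groups (horizontal axis). Each point is a library and each bar the mean of 2 libraries. *Myc*, *Mycn*, *Mxd3* and *Mxi1* are higher in every day 5 library than in any day 0 library, and *Mxd4* and *Mnt* are lower in every one. *Mnt* is at 2.65 to 2.82 CPM in WT at day 5 and 6.44 to 6.63 CPM in labelled KO at day 5. Of all genes tested, 48.3% were called by day in WT and 50.2% in labelled KO.

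The shared partners showed smaller differences. *Max* (chr12:76937269-76962201, minus strand), the obligate partner of MYC, was at 34.5 and 47.0 CPM in WT at day 0 and 31.2 and 19.5 CPM in WT at day 5, and at 38.4 and 30.5 CPM and then 28.5 and 26.9 CPM in labelled KO. *Max* fell by 0.67 on the log2 scale in WT (SE 0.24, edgeR adjusted p = 0.0383), and its difference in labelled KO was -0.32 (SE 0.24, adjusted p = 0.273). The WT call was not stable. It was lost with DESeq2 (adjusted p = 0.0577), in a fit of the 4 WT libraries alone (0.0524), and without WT day 0 replicate 2 (0.284), WT day 5 replicate 2 (0.303), labelled KO day 5 replicate 1 (0.0604) or labelled KO day 5 replicate 2 (0.0572).

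*Mlx* (chr11:101087277-101092207, plus strand) was at 57.1 and 51.1 CPM and then 49.4 and 47.7 CPM in WT, and 60.1 and 42.2 CPM and then 43.2 and 45.1 CPM in labelled KO. Its log2 difference was -0.16 (SE 0.19, adjusted p = 0.517) in WT and -0.22 (SE 0.18, adjusted p = 0.329) in labelled KO, the latter -0.63 (adjusted p = 0.0141) with an offset for GC content and exon length and 0.08 without labelled KO day 0 replicate 1. Of the exon length of *Mlx*, 19.3% lies opposite exons of *Psmc3ip*, and the strand setting of the counting is not given in the sources used here, so reads of the 2 genes cannot be told apart there.

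The antagonists diverged. *Mxd3* (chr13:55325168-55329823, minus strand), the MXD gene known to be expressed in cycling cells around S phase, went from the edge of detection to the highest of the group. It was at 1.07 and 1.58 CPM in WT and 1.37 and 0.73 CPM in labelled KO at day 0, from between 4 and 16 counts a library. At day 5 it was at 130 and 97.4 CPM in WT and 104 and 142 CPM in labelled KO. *Mxd3* rose by 6.43 on the log2 scale in WT (SE 0.32, edgeR adjusted p = 7.72e-09) and by 6.71 in labelled KO (SE 0.31, adjusted p = 2.56e-09).

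*Mxi1* (chr19:53310518-53375810, plus strand), also called MXD2, was at 8.94 and 9.50 CPM in WT and 9.26 and 11.2 CPM in labelled KO at day 0. It was at 56.6 and 60.002 CPM and at 70.1 and 66.3 CPM at day 5. The rise of *Mxi1* was 2.66 on the log2 scale in WT (SE 0.19, edgeR adjusted p = 2.38e-07) and 2.75 in labelled KO (SE 0.18, adjusted p = 9e-08), and the day 0 and day 5 libraries did not overlap.

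*Mxd4* (chr5:34173883-34187720, minus strand), an MXD gene associated with quiescent and differentiated cells, moved the other way. It was at 25.9 and 21.7 CPM in WT and 18.2 and 32.3 CPM in labelled KO at day 0, and between 8.995 and 9.75 CPM in all 4 libraries at day 5. *Mxd4* fell by 1.39 on the log2 scale in WT (SE 0.29, edgeR adjusted p = 0.00173) and by 1.40 in labelled KO (SE 0.28, adjusted p = 0.00129).

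*Mnt* (chr11:74830920-74845725, plus strand), a large MAX-binding repressor outside the MXD family, was at 8.76 and 9.27 CPM in WT at day 0 and 2.82 and 2.65 CPM in WT at day 5. In labelled KO it was at 9.52 and 7.34 CPM and then 6.44 and 6.63 CPM. *Mnt* fell by 1.71 on the log2 scale in WT (SE 0.34, edgeR adjusted p = 0.00121), and its difference in labelled KO was -0.38 (SE 0.29, adjusted p = 0.294). The WT day 5 values rest on 16 and 11 counts.

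*Mxd1* (chr6:86647042-86669161, minus strand), the founding MXD gene and known from terminal differentiation, stayed between 12.7 and 18.2 CPM in all 8 libraries. Its log2 difference was -0.12 in WT (SE 0.24, edgeR adjusted p = 0.711) and -0.11 in labelled KO (SE 0.22, adjusted p = 0.701). The calls of *Myc*, *Mycn*, *Mxd3*, *Mxi1* and *Mxd4* in both genotypes and of *Mnt* in WT held under all 18 alternatives, which were other scalings, filters, tools and fits and the removal of each library.

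**Figure D2:**
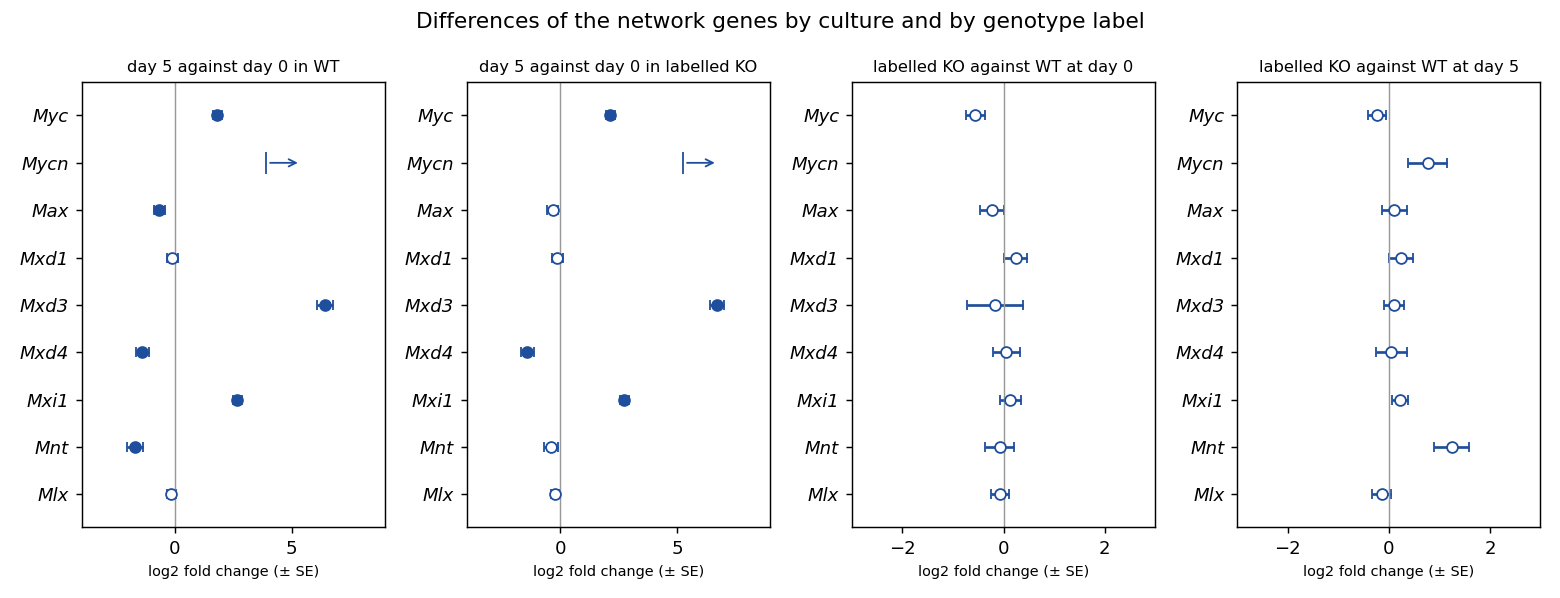
Log2 fold change (horizontal axis) of each network gene in the 4 comparisons, with the standard error as bars. Filled points passed the edgeR test at an adjusted p under 0.05, arrows start at the lower bound of *Mycn* against the 3-count floor, and no point is drawn for *Mycn* at day 0, where both groups were at the floor; the 2 genotype panels on the right hold no filled point.

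To compare genes with each other, CPM was divided by the exon length of each gene. That length merges the exons of all annotated transcripts, and was 1.999 kb for *Mlx*, 2.37 kb for *Mxd3* and 8.48 kb for *Mxd4*. Which transcripts these cells use was not examined. The order, shares and ratios below therefore depend on the annotation. In WT at day 0 the order was *Myc* (52.9 to 59.8 CPM per kb), *Mlx* (25.6 to 28.5), *Max* (9.59 to 13.1), *Mxd4* (2.56 to 3.06), *Mxd1* (1.80 to 2.43), *Mnt* (1.89 to 2.004), *Mxi1* (1.31 to 1.39), *Mxd3* (0.453 to 0.668) and *Mycn* (0 to 0.109). Of these neighbours only *Mxd1* and *Mnt* overlapped between libraries. In WT at day 5 *Myc* (168 to 229) was followed by *Mxd3* (41.1 to 54.8), *Mlx* (23.9 to 24.7), *Mxi1* (8.30 to 8.79), *Max* (5.42 to 8.68), *Mycn* (2.63 to 2.94), *Mxd1* (1.87 to 2.01), *Mxd4* (1.06 to 1.08) and *Mnt* (0.573 to 0.610), with *Mxi1* and *Max* overlapping. In labelled KO the day 0 order was the same, with *Mxd4* and *Mxd1* and also *Mnt* and *Mxi1* overlapping. At day 5 *Mnt* (1.39 to 1.43) stood above *Mxd4* (1.07 to 1.15) and no neighbours overlapped.

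The make-up of the antagonist transcripts at each day is given as a description, without a test. Summed over *Mxd1*, *Mxd3*, *Mxd4*, *Mxi1* and *Mnt*, the level was 8.51 to 9.91 CPM per kb at day 0 and 53.6 to 74.3 CPM per kb at day 5. At day 0 *Mxd4* held 25.1% to 38.4% of this sum, *Mxd1* 21.1% to 28.1%, *Mnt* 16.0% to 24.1%, *Mxi1* 15.4% to 16.6% and *Mxd3* 3.13% to 7.38%. At day 5 *Mxd3* held 74.5% to 82.2%, *Mxi1* 12.5% to 17.4%, *Mxd1* 2.81% to 3.83%, *Mxd4* 1.44% to 2.02% and *Mnt* 0.915% to 2.35%.

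**Figure D3:**
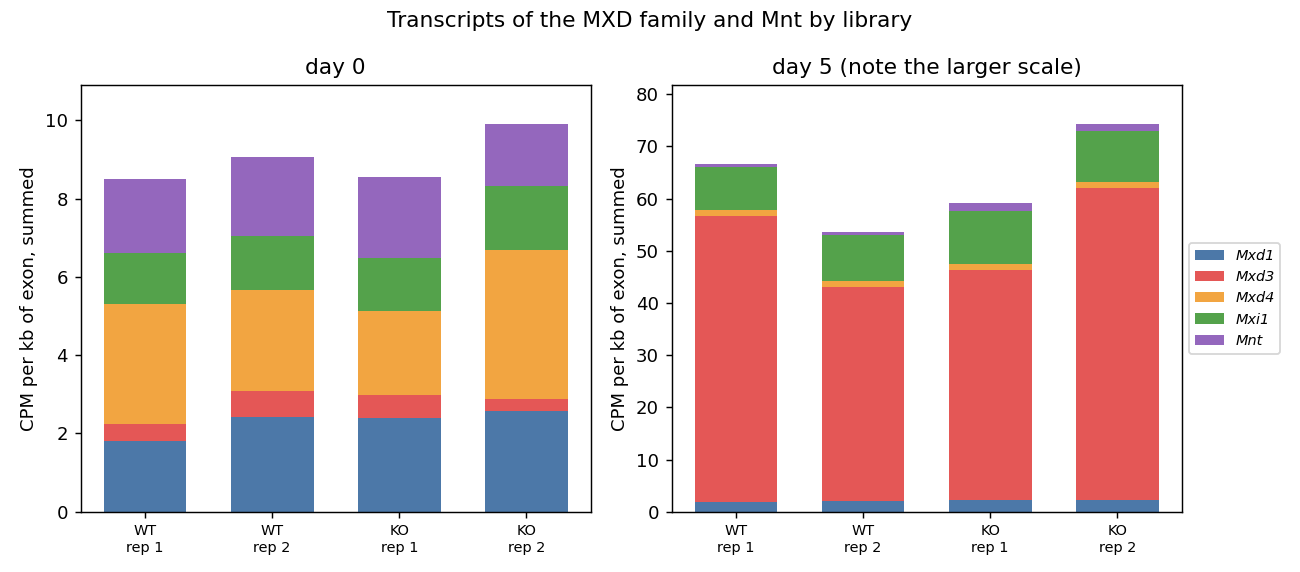
Transcripts of the 5 antagonist genes in each library, stacked (vertical axis, CPM per kb of exon, from 0; the 2 panels have different scales). The sum is 8.51 to 9.91 at day 0, split among *Mxd4*, *Mxd1*, *Mnt* and *Mxi1*, and 53.6 to 74.3 at day 5, where *Mxd3* holds 74.5% to 82.2%.

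*Myc* per kb was 3.64 to 6.61 times the antagonist sum at day 0 and 2.31 to 4.28 times at day 5. The ratio was lower at day 5 than at day 0 within WT (6.22 and 6.61 against 2.52 and 4.28) and within labelled KO (3.64 and 4.599 against 2.84 and 2.31). *Myc* over *Max* was 2.91 to 5.52 at day 0 and 19.4 to 42.3 at day 5, and the antagonist sum over *Max* was 0.693 to 1.17 at day 0 and 7.46 to 9.95 at day 5. These ratios describe transcripts, were not tested, and say nothing of protein.

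The genotype comparison asked whether the network differed with the WT or KO label. No network gene passed at either day: 0 of 9 at day 0 and 0 of 9 at day 5, where 1.8% (0.913% higher and 0.889% lower) and 1.63% (1.31% higher and 0.318% lower) of all genes were called. At an unadjusted p under 0.05 there was 1 of the 9 genes at each day, where 13.8% of all genes passed that threshold at day 0 and 14.1% at day 5. DESeq2 called 0 at each day, but at day 5 it gave no adjusted p for *Mycn* and *Mnt*. Without the filter on low counts 1 gene, *Myc*, was called at day 0.

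That gene was the nearest to a call at day 0. Both libraries labelled KO (84.6 and 124 CPM) lay below both WT libraries (144 and 163 CPM), a log2 difference of -0.56 (SE 0.19, edgeR adjusted p = 0.194; 0.0411 without the filter). Groups that did not overlap were common, in 43.4% of all genes at day 0, and *Myc* was 1 such gene of the 9. At day 5 its log2 difference was -0.23 (SE 0.18, adjusted p = 0.644), and the values overlapped.

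At day 5 the groups did not overlap for 5 of the 9 genes, *Mycn*, *Mxd1*, *Mxi1*, *Mnt* and *Mlx*, and for 45.6% of all genes, so that a gap between groups by itself set none of them apart. The widest gap was in *Mnt*, at 2.82 and 2.65 CPM in WT and 6.44 and 6.63 CPM in labelled KO, a log2 difference of 1.24 (SE 0.35, edgeR adjusted p = 0.105). Over 17 alternatives that adjusted p ranged from 0.0856 to 0.478, so the difference was not called in any of them. *Mycn* was next, at 9.70 and 8.68 CPM against 13.4 and 17.99 CPM, with a log2 difference of 0.77 (SE 0.38, adjusted p = 0.391). The log2 differences of *Mxd1*, *Mxi1* and *Mlx* were 0.25, 0.23 and -0.14, with adjusted p from 0.599 to 0.809. *Max*, *Mxd3* and *Mxd4* differed by 0.05 to 0.11.

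Whether the response to culture depended on the genotype label was tested as an interaction, the labelled KO minus WT difference at day 5 less that at day 0. It passed for 0 of the 9 network genes, where 0.159% of all genes were called (0.0794% in each direction). At an unadjusted p under 0.05 there was 1 of the 9 genes (12.4% of all genes). That gene was *Mnt*, with an interaction of 1.32 (SE 0.45, edgeR adjusted p = 0.268). DESeq2 called 0 of the network genes, but it gave *Mnt* no adjusted p, so it is no check of that gene. The call of *Mnt* in WT and its absence in labelled KO are thus not shown to differ. The same holds for *Max*, whose interaction was 0.34 (SE 0.34, adjusted p = 0.743).

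Promoters of the network genes were searched for the E-box letters CACGTG, which read the same on both strands, because the network is known to act through them. The windows ran from 250 bases before to 50 bases after the RefSeq start (GRCm38.p6); no other motif was searched. Of the 9 genes 8 matched, and *Myc* did not. The letters were found for 4 of the 8, *Max*, *Mxd4*, *Mnt* and *Mlx*, against 8.09% of all genes with a window and 12.1% of the tested ones. Counted by window it was 4 of 10, against 7.15% of all 32851 windows and 10.2% of those of tested genes. The stretches around them are shown with the motif in capitals, each read 5′ to 3′ on the strand of its gene, as chr12:76962234-76962263 (minus strand), chr5:34187912-34187941 (minus), chr11:74830789-74830818 (plus) and chr11:101087238-101087267 (plus).
Max: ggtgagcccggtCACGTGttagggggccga
Mxd4: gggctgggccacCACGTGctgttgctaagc
Mnt: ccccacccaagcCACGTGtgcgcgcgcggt
Mlx: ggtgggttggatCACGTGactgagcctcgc
The first base of the motif lies 3, 219, 123 and 40 bases before the start, in that order. In WT the genes with the letters were lower at day 5 (*Max*, *Mxd4*, *Mnt*) or not called (*Mlx*), and the matched genes without them were higher (*Mycn*, *Mxd3*, *Mxi1*) or not called (*Mxd1*). In labelled KO only *Mxd4* of the 4 genes with the letters was lower, *Max*, *Mnt* and *Mlx* were not called, and the 4 without them stood as in WT. The loss of the WT call of *Max* in 6 alternatives holds here too. Among all tested genes, 24.7% were higher and 23.6% lower in WT, and 26.2% and 24% in labelled KO. These shares were not computed for genes with and without the letters. The activated targets with the letters, given below, did not all move in the same direction. A match is a description of the letters in this window and was not tested against the changes.

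Beyond these genes, the remaining members of the wider network were *Mga*, *Mlxip*, *Mycl* and *Mlxipl*. *Mga*, which encodes a giant MAX-binding repressor, was at 105 and 102 CPM in WT at day 0 and 54.7 and 67.0 CPM in WT at day 5. *Mga* fell by 0.77 on the log2 scale in WT (SE 0.15, edgeR adjusted p = 0.000932) and by 0.98 in labelled KO (SE 0.15, adjusted p = 0.000126). *Mlxip*, which encodes MondoA, differed by -0.41 in WT (SE 0.20, adjusted p = 0.11) and fell by 0.65 in labelled KO (SE 0.19, adjusted p = 0.0129), a call lost without labelled KO day 0 replicate 1 (0.096) or day 5 replicate 2 (0.128). *Mycl* and *Mlxipl*, encoding L-MYC and ChREBP, did not pass the filter, at no more than 0.551 and 1.06 CPM in any library. Of the direct targets of MondoA and MLX, *Txnip*, which restrains glucose uptake, fell by 0.98 in WT (SE 0.19, adjusted p = 0.000917) and by 0.999 in labelled KO (SE 0.19, adjusted p = 0.000742). *Arrdc4* was at 4.30 CPM or less in every library and was not called.

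Of 9 genes listed as coactivators or partners of MYC, 2 were higher and 3 lower at day 5 in WT, with a median log2 difference of -0.12. Of all genes 24.7% were higher and 23.6% lower in WT. The higher ones were *Ruvbl2* (1.84) and *Ruvbl1* (0.66), ATPases of chromatin remodelling complexes, and the lower ones included *Trrap* (-0.73) and *Ep400* (-0.65), large subunits of histone acetyltransferase complexes. In labelled KO 3 were higher, *Zbtb17* (0.71), which encodes a partner of MYC, joining the same pair, and 3 lower. Of all genes 26.2% were higher and 24% lower in labelled KO. The call of *Ruvbl1* in labelled KO was lost in 3 alternatives, among them the GC and length offset (0.10, edgeR adjusted p = 0.58). With that offset 1 of the 9 was higher and 3 lower in labelled KO. The call of *Zbtb17* was lost in 8 alternatives, 5 of them without a library, with adjusted p from 0.0515 to 0.224. In place of 5 calls in WT there was 1 with the GC and length offset and there were 3 without WT day 0 replicate 2, and in place of 6 calls in labelled KO there were 3 without day 0 replicate 1 or day 5 replicate 2. Among 10 genes of the SIN3 and NCOR corepressor complexes that MXD proteins recruit, 4 were higher and 2 lower in WT, with a median of 0.19, beside the same shares of all genes in WT. *Rbbp7* (0.54), *Sap18* (0.46) and *Rbbp4* (0.43) were among the higher and *Ncor1* (-0.77) and *Sin3a* (-0.46) were the lower ones. The calls of *Rbbp7* and *Sap18* were lost in 6 alternatives each, that of *Rbbp4* in 4 and that of *Sin3a* in 8. Over the 10 genes, 3 in place of 6 were called with scaling by library totals, with the GC and length offset or without either WT day 5 library, and 2 without either WT day 0 library. The fourth higher gene in WT, *Sap30*, did not exceed 3.37 CPM. In labelled KO 3 of the 10 were higher and 1 lower, with a median of 0.14, where 50.2% of all genes were called.

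Of 9 genes that set the stability of the MYC protein, 4 were higher and 2 lower in WT, with a median log2 difference of 0.34, and 5 were higher and 3 lower in labelled KO, with a median of 0.62, where 48.3% and 50.2% of all genes were called. *Cip2a*, listed in the files under an older symbol, an inhibitor of the phosphatase that destabilises MYC, was at 3.76 and 5.43 CPM in WT at day 0 and 195 and 201 CPM at day 5, a log2 difference of 5.45 (SE 0.19, edgeR adjusted p = 4.01e-10). *Aurka*, a mitotic kinase that shields N-MYC from degradation, was at 7.87 and 7.91 CPM and then 275 and 272 CPM, a difference of 5.11 (SE 0.16, adjusted p = 1.67e-10). The kinase gene *Pim1* rose by 2.63. *Usp28*, a deubiquitinase of MYC, was at 217 and 196 CPM and then 32.6 and 36.4 CPM and fell by 2.58 (SE 0.14, adjusted p = 2.16e-08), and the ubiquitin ligase gene *Huwe1* fell by 0.93. *Fbxw7*, the ligase gene best known for MYC turnover, was not called (0.34 in WT, 0.03 in labelled KO).

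Of 24 genes tested of 25 known as activated by MYC, 11 were higher and 4 lower in WT, with a median log2 difference of 0.32, and 11 were higher and 2 lower in labelled KO, with a median of 0.25. Of all genes 24.7% were higher and 23.6% lower in WT, and 26.2% and 24% in labelled KO. In labelled KO 10 were higher and 5 lower both with scaling by library totals (median 0.07) and with the GC and length offset (median 0.02), and 1 was lower without labelled KO day 0 replicate 1 or day 5 replicate 2. In WT 10 were higher, with a median of 0.18, both with scaling by library totals and with the offset. The numbers of higher and of lower genes in WT also changed when single WT libraries were left out. The WT median was 0.24 without WT day 0 replicate 1 and 0.42 without replicate 2. It was 0.13 without WT day 5 replicate 1 and 0.56 without replicate 2. The largest rises in WT were in *Hk2* (hexokinase 2, 1.61 and 1.36 CPM and then 148 and 159 CPM; 6.66, SE 0.25), *Tfrc* (the transferrin receptor; 3.22, SE 0.20) and *Ldha* (lactate dehydrogenase; 2.80, SE 0.15), and *Hk2*, *Ldha* and *Tfrc* also led in labelled KO (7.12, 3.12 and 2.33). The lower genes named by rule in WT were *Ccnd2* (cyclin D2, -0.94), *Cad* (pyrimidine synthesis, -0.84) and *Polr1b* (RNA polymerase I, -0.81), and in labelled KO *Ddx18* (-0.60) and *Ccnd2* (-0.48). The call of *Cad* was lost with DESeq2 (0.0711), the GC and length offset (0.103) and equal depth (0.0755), and those of *Cad* (0.165 and 0.182) and *Polr1b* (0.0538 and 0.0555) without WT day 0 replicate 2 or WT day 5 replicate 2. That of *Ddx18* was lost without labelled KO day 5 replicate 1 (0.102), and that of *Ccnd2* in labelled KO without day 0 replicate 1 (0.096) or day 5 replicate 2 (0.0918).

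**Figure D4:**
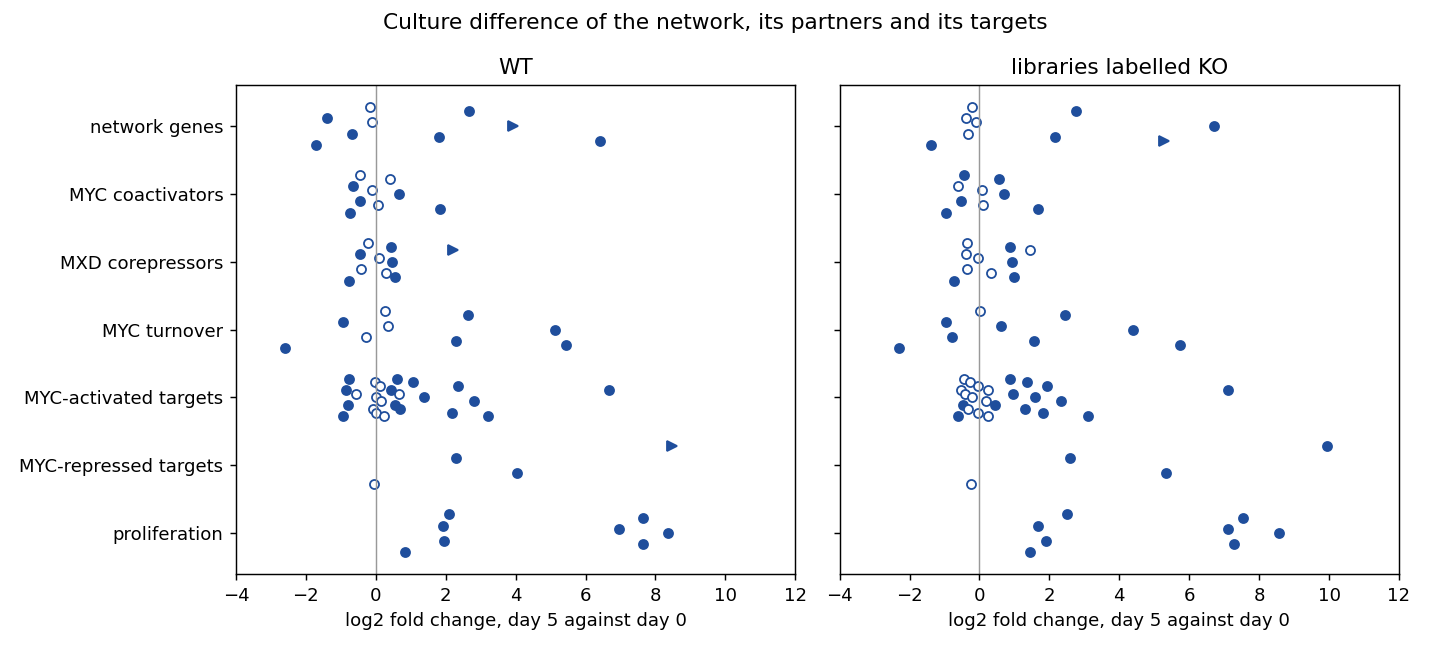
Log2 fold change between day 5 and day 0 (horizontal axis) of each tested gene of the network, its partners, its targets and proliferation (rows), in WT on the left and labelled KO on the right. Filled points passed the edgeR test, triangles are lower bounds, and the vertical scatter within a row carries no value; the targets activated by MYC lie on both sides of 0, while the proliferation genes all lie to its right.

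Of 6 genes known as repressed by MYC 4 were tested, of which 3 rose in each genotype, where 24.7% and 26.2% of all genes were higher, and *Cdkn2b* and *Gadd45a* did not pass the filter. *Cdkn1a*, which encodes the cell cycle inhibitor p21, was at 0.179 and 0.226 CPM in WT at day 0 and 227 and 202 CPM at day 5, at least 353-fold higher against the floor. *Ndrg1*, a stress and hypoxia response gene, rose by 4.04 on the log2 scale in WT (SE 0.25) and by 5.33 in labelled KO (SE 0.26). *Ndrg2*, of the same family, rose by 2.30 and 2.60. *Cdkn1b*, which encodes p27, differed by -0.06 and -0.25 and was not called.

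The E-box letters were found in the windows of 7 of 19 matched genes of the activated list, and in the windows of 0 of 7 matched proliferation genes. The activated genes with the letters were *Nme1*, *Ldha*, *Cdk4*, *Hspd1*, *Eif4a1*, *Apex1* and *Mybbp1a*. More than 1 copy was found for *Ldha*, *Cdk4*, *Apex1* and *Nme1*. Mean CPM in WT at day 0 and then day 5 was 193 and 193 for *Apex1* and 221 and 245 for *Nme1*. It was 257 and 418 for *Hspd1*, 479 and 558 for *Eif4a1*, and 174 and 103 for *Mybbp1a*. For comparison with the network genes, 1 stretch each of *Ldha* and *Cdk4* is shown, from chr7:46845744-46845773 and chr10:127063512-127063541 (both plus strand).
Ldha: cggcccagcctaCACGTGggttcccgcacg
Cdk4: aagggtgaagatCACGTGtccagaacgtcc
*Ldha* was at 622 and 673 CPM in WT at day 0 and 5299 and 3742 CPM at day 5, and *Cdk4*, the kinase partner of D cyclins, was at 289 and 317 CPM and then 712 and 552 CPM (log2 difference 1.06, SE 0.14, edgeR adjusted p = 3.82e-05).

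Of the proliferation genes, all 8 (*Mki67*, *Top2a*, *Ccnb1*, *Ccna2*, *Cdk1*, *Pcna*, *Mcm2*, *Mcm5*) were higher at day 5 in each genotype, where 24.7% and 26.2% of all genes were higher. Their median log2 difference was 4.52 in WT and 4.81 in labelled KO. Their summed level was 237 to 281 CPM at day 0 and 4292 to 4636 CPM at day 5. The part of cell division in the differences of *Mxd3* and the other genes was not tested.

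By genotype label, few genes of these lists were called. At day 0 *Eif4a1*, an RNA helicase of translation initiation on the activated list, was lower in labelled KO (298 and 223 against 444 and 513 CPM; -0.87, SE 0.19, edgeR adjusted p = 0.0389), a call lost without either WT day 0 library (0.188 and 0.304), without labelled KO day 0 replicate 2 (0.188), and without labelled KO day 5 replicate 1 (0.0641) or 2 (0.0623). At day 5 *Gnl3*, which encodes nucleostemin, was lower in labelled KO (115 and 85.2 against 163 and 163 CPM; -0.70, SE 0.16, adjusted p = 0.0474), and this call was lost with the replicate block (0.0527), the GC and length offset (0.0618), equal depth (0.069), the 4 libraries alone (0.074) and without any of 6 libraries, all but those labelled KO at day 0. *Cdkn1a* was higher in labelled KO at day 5 (349 and 380 against 227 and 202 CPM; 0.76, SE 0.13, adjusted p = 0.0131), with an adjusted p of 0.0534 under the GC and length offset, 0.0696 without WT day 5 replicate 2, and 0.0878 and 0.225 without labelled KO day 5 replicates 1 and 2. Of the 24 tested activated targets, 1 was called at each day, where 1.8% of all genes were called at day 0 and 1.63% at day 5. Their median log2 difference, labelled KO against WT, was -0.20 at day 0, with 5 of the 24 above 0. At day 5 it was -0.22, with 8 of the 24 above 0. The medians of all genes were -0.0017 and 0. The lean of the list was not tested. Among the cell markers *Cd8a* was higher in labelled KO at day 5 (0.60, adjusted p = 0.0155), a call lost in the 4 libraries alone (0.0593) and without labelled KO day 5 replicates 1 (0.129) and 2 (0.126).

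Across the 8 libraries, the 5 genes most like *Myc* by Pearson correlation of log2 CPM, among 8004 with a mean of at least 10 CPM, were *Incenp* (r = 0.997), *Tex9* (0.994), *Txnl1* (0.992), *Fut8* (0.991) and *Gm16754* (0.990). For *Mxd3*, the antagonist with the largest culture difference, they were *Nusap1*, *Acot7*, *Dapk2*, *Gm9800* and *Acat2*, each at 0.999 after rounding. The libraries fall into 2 days, so these values mostly reflect a difference between days that many genes share, and they are given as a description.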

How the data were processed

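For each library the authors deposited raw read counts per gene symbol, one table per library, not normalized and not pooled. Total RNA of sorted cells was sequenced to 50 bp, and the submitters' processing notes name HISAT2 2.1.0, HTSeq 0.11.1 and mm10 (GRCm38). Annotation and strand setting are not given in the sources used here. The limit given for *Mlx* therefore also holds for other named genes with exons opposite those of another gene. Examples are *Apex1* (61.7% of exon length), *Cdk4* (19.7%), *Txnip* (19.4%), *Rbbp4* (18.05%) and *Ruvbl2* (15.4%). Reads aligning to more than 1 place (31.8% to 37.4% of records) were set aside, so genes with near-identical copies are undercounted. Lines of the counting program that name no gene, such as reads in no feature (27.5% to 33.7% of records), were left out.

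Counts of 12597 genes (default filter, minimum count 10) were fitted with edgeR 4.0.16 in R 4.3.3, with TMM factors (0.920 to 1.07), all 8 libraries and a mean per group. Tests were two-sided quasi-likelihood tests with Benjamini-Hochberg adjustment over all 12597 genes, called under 0.05. The fit was tested on simulated data. CPM used the TMM-scaled library size, and length was the merged exon length of GENCODE M21. A count of 3 per library was the floor, which covers counting error only. Nothing says that libraries of a group came from separate animals, so p-values measure the spread between these libraries. No 2 libraries of a group agreed within sampling noise (chi-square per degree of freedom 4.67 to 9.91).

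Groups came from the sample titles. The 9 genes and the gene lists were chosen with earlier results of these data known. From each list, at most 3 called genes per direction with at least 10 CPM were named, plus every gene of lists of up to 4; other genes, such as *Fbxw7*, *Cdk4*, *Cdkn1b*, *Sap30*, *Cdkn2b* and *Gadd45a*, were named after their values were seen. Single listed genes that are included in the counts are not reported here. Alternatives were DESeq2 1.42.0, DESeq2 size factors, library totals, no filter, at least 5 CPM in 2 libraries, the edgeR 4 form, a replicate block, an offset for GC content and exon length (available for 96.9% of tested genes), equal depth, only the 4 libraries of a comparison, and leaving out each library.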

Additional observations from a re-analysis of the deposited data

Results flagged for a closer look

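*Satb1*, the gene named in the description of the series, was the result that stood out: its labelled KO minus WT difference was not the same at day 0 and day 5. The interaction was -1.34 on the log2 scale (SE 0.21, edgeR adjusted p = 0.0269), from a difference of 0.51 at day 0 to -0.84 at day 5. The call was lost with the GC and length offset (-1.15, adjusted p = 0.0793) and without WT day 0 replicates 1 (0.156) and 2 (0.23), labelled KO day 0 replicate 1 (0.0501), WT day 5 replicate 2 (0.0556) and labelled KO day 5 replicates 1 (0.177) and 2 (0.123), and the sign was negative in each of these. Both libraries labelled KO lay above both WT libraries at day 0 and below both at day 5. No network gene had an interaction that passed.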

How the results depend on the processing

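Each group holds 2 libraries. A network gene at under 10 CPM, such as *Mnt* in WT at day 5 or *Mxd3* at day 0, rests on few counts, and a small difference in it was not detectable at this depth. Among the alternative values of the log2 differences, 633 kept direction and side of the threshold, 6 (all *Max* in WT, values in the report) lost the call, 2 gained it and 19 changed sign, none of those called. The cause of these changes was not tested.

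The sign changed under the GC and length offset for *Mxd4* (-0.021) and *Mnt* (0.060) at day 0 and for *Mxd3* (-0.058) and *Mxd4* (-0.048) at day 5, in each case labelled KO against WT, and with equal depth for *Mnt* at day 0 (0.043). Leaving out each library in turn gave, labelled KO against WT at day 0, -0.44 to 0.0037 for *Max*, -0.81 to 0.11 for *Mxd3*, -0.36 to 0.43 for *Mxd4*, -0.30 to 0.11 for *Mnt* and -0.36 to 0.18 for *Mlx*. At day 5 it gave -0.43 to 0.015 for *Myc*, -0.17 to 0.51 for *Max* and -0.13 to 0.35 for *Mxd3*. Day 5 against day 0, it gave -0.32 to 0.12 for *Mxd1* in WT and -0.45 to 0.076 for *Mlx* in labelled KO. The 2 gains were *Myc* at day 0 without the filter (-0.53, adjusted p = 0.0411), which made the count of network genes called 1 in place of 0, and *Mlx* in labelled KO (-0.63).

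Of all genes, labelled KO against WT called 227 at day 0, 434 without the filter and 38 to 276 without a library; 38 and 49 came without WT day 0 replicates 1 and 2. At day 5 it called 205, with 418 without the filter, 350 by DESeq2, 121 with the GC and length offset and 32 to 249 without a library; 54 and 32 came without labelled KO day 5 replicates 1 and 2, 84 without WT day 5 replicate 2, and 121 and 119 without WT day 0 replicates 1 and 2. The interaction called 20, with 154 without the filter, 144 by DESeq2, 12 with the offset, 33 at equal depth and 0 to 41 without a library; 0 and 1 came without WT day 0 replicates 1 and 2, 41 without WT day 5 replicate 1, and 3 and 4 without labelled KO day 5 replicates 1 and 2. Scaling by library totals shifted the median log2 difference over the genes tested by -0.14 for WT and -0.18 in labelled KO (2668 higher and 3560 lower in WT, 2755 and 3936 in labelled KO), and the offset by -0.13 and -0.19 (2617 and 3496, 2808 and 3767); the main split was 3112 and 2969 in WT, 3296 and 3029 in labelled KO.

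The libraries share replicate numbers that the labels do not describe as pairs. Their deviations from the group means correlated at 0.118 in WT and 0.228 in labelled KO. A fit with a replicate block called, labelled KO against WT, 216 genes at day 0 and 215 at day 5, the interaction 29, and day 5 against day 0 called 5999 in WT and 6291 in labelled KO; 7 and 5 network genes were called by day and 0 by genotype label, and all 37 log2 differences kept their side of the threshold.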
